A study of Mus musculus with 9 samples.

Results

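The T-box genes encode transcription factors that share the T-box, a DNA-binding domain first described in brachyury. Of the 47729 genes in the deposited FPKM table, 9 were taken here by their gene name: T (which encodes brachyury), Eomes, Tbx2, Tbx3, Tbx4, Tbx5, Tbx6, Tbx15 and Tbx20. FPKM is the number of fragments per kilobase of exon, scaled to the number mapped in the library, so levels in FPKM can be compared between genes. The 9 genes were picked by name with results of these libraries already known, so their changes are given as a description. RNA was sequenced from a mouse embryonic stem cell (ESC) line in which doxycycline (dox) turns on a transgene for a forced homodimer of E2A, and all cells, those at 0 h included, carried this transgene and were grown in LIF/serum. E2A is a basic helix-loop-helix (bHLH) protein that binds short DNA elements called E-boxes. The forced homodimer is made of a pair of E47 sequences, E47 being a splice form of E2A, tethered by a linker and placed upstream of Hprt by cassette exchange. The groups were untreated cells (0 h) and cells that had received dox at 1 µg/ml for 18 h or 24 h, with 3 replicates each, and no cells that received dox without the transgene were analysed here. The protocol entry of the labels names 24 h and 48 h instead, and the titles and treatment entries, which give 18 h and 24 h, were followed.

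T-box proteins act as activators or repressors, and members of the family act in many of the mesodermal territories of the embryo. Brachyury and Eomes act in the primitive streak, where mesoderm and endoderm arise, and Eomes also acts in the trophoblast. Tbx6 is required for the paraxial mesoderm that gives rise to somites. Tbx2 and Tbx3 are mainly repressors with roles in the heart, limb and mammary gland, and Tbx3 is also expressed in naive ESCs. Tbx4 is known for the hindlimb and lung, and its close relative Tbx5 for the forelimb and heart. Tbx20 is a cardiac factor, and Tbx15 acts in the skin, skeleton and muscle.

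Libraries held 22028363 to 26471569 reads on the genes that passed the authors' filter. Tcf3, which encodes E2A, was at 39.1 FPKM at 0 h, 110.1 FPKM at 18 h and 102 FPKM at 24 h, and rose at both times by limma (log2 fold-change of 1.49, adjusted p = 2.37e-05, and 1.38, adjusted p = 3.11e-05). Reads of the transgene can be counted on Tcf3. All 8 pluripotency markers were detected in every library. Their sum was 1441 to 2116 FPKM at 0 h and 1064 to 1709 FPKM at 24 h, lower within each replicate. Dppa5a, the highest of them, weighs most in this sum, at 623 to 1069 FPKM at 0 h and 460 to 905 FPKM at 24 h. Sox2 was at 83.1 to 98.9 FPKM and 81.0 to 97.3 FPKM, so the markers did not all change alike. Pou5f1 went from a mean of 371 FPKM to 248 FPKM at 24 h (log2 fold-change of -0.58, limma adjusted p = 0.0220). Tdgf1 went from 121 to 144 FPKM at 0 h to 44.9 to 52.5 FPKM at 24 h. Nanog was higher at 24 h within each replicate. A gene was called when limma gave an adjusted p of no more than 0.05 together with a log2 fold-change of at least 1 in either direction, on the scale of log2(FPKM+0.1), which understates the change of low genes. Of the 9 T-box genes, 8 had a mean FPKM of 0.1 or more and were tested, and Tbx5 was not. Of these 8, 1 (Tbx4) was called at 18 h and at 24 h compared with 0 h, in both cases as higher. Over all 17951 genes tested, 2.06% were called at 18 h (1.33% higher and 0.724% lower) and 2.9% at 24 h (2.07% higher and 0.836% lower). Both comparisons rest on the same 0 h libraries.

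Tbx4 (ENSMUSG00000000094, chr11:85886422-85916097 of GRCm38, plus strand, 10 exons) showed the greatest change of the 8 tested genes. At 0 h its level was 0.0863, 0.172 and 0.122 FPKM in replicates 1, 2 and 3, from 7, 14 and 9 reads. At 18 h it was 1.00, 0.991 and 0.972 FPKM, from 78, 84 and 80 reads. At 24 h it was 1.09, 0.956 and 0.745 FPKM, from 94, 83 and 69 reads. Every library taken after dox thus lay well above every 0 h library, and the 3 libraries at 18 h were close to one another. Libraries of the 2 groups did not overlap for 28.1% of all tested genes at 18 h and for 31.3% at 24 h. The mean FPKM was 7.82 times the 0 h mean at 18 h and 7.35 times at 24 h. By limma, the log2 fold-change was 2.28 (95% interval 1.82 to 2.75; adjusted p = 0.000666) at 18 h. It was 2.19 (95% interval 1.72 to 2.65; adjusted p = 0.000605) at 24 h. On the recovered reads, edgeR gave log2 fold-changes of 2.95 and 2.85, which do not carry the added 0.1 FPKM. With 1 FPKM added instead, the change was 0.82 at 18 h and 0.77 at 24 h and was no longer called. In these bulk libraries, a change in the number of expressing cells and a change in RNA per cell cannot be told apart.

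**Figure D1:**
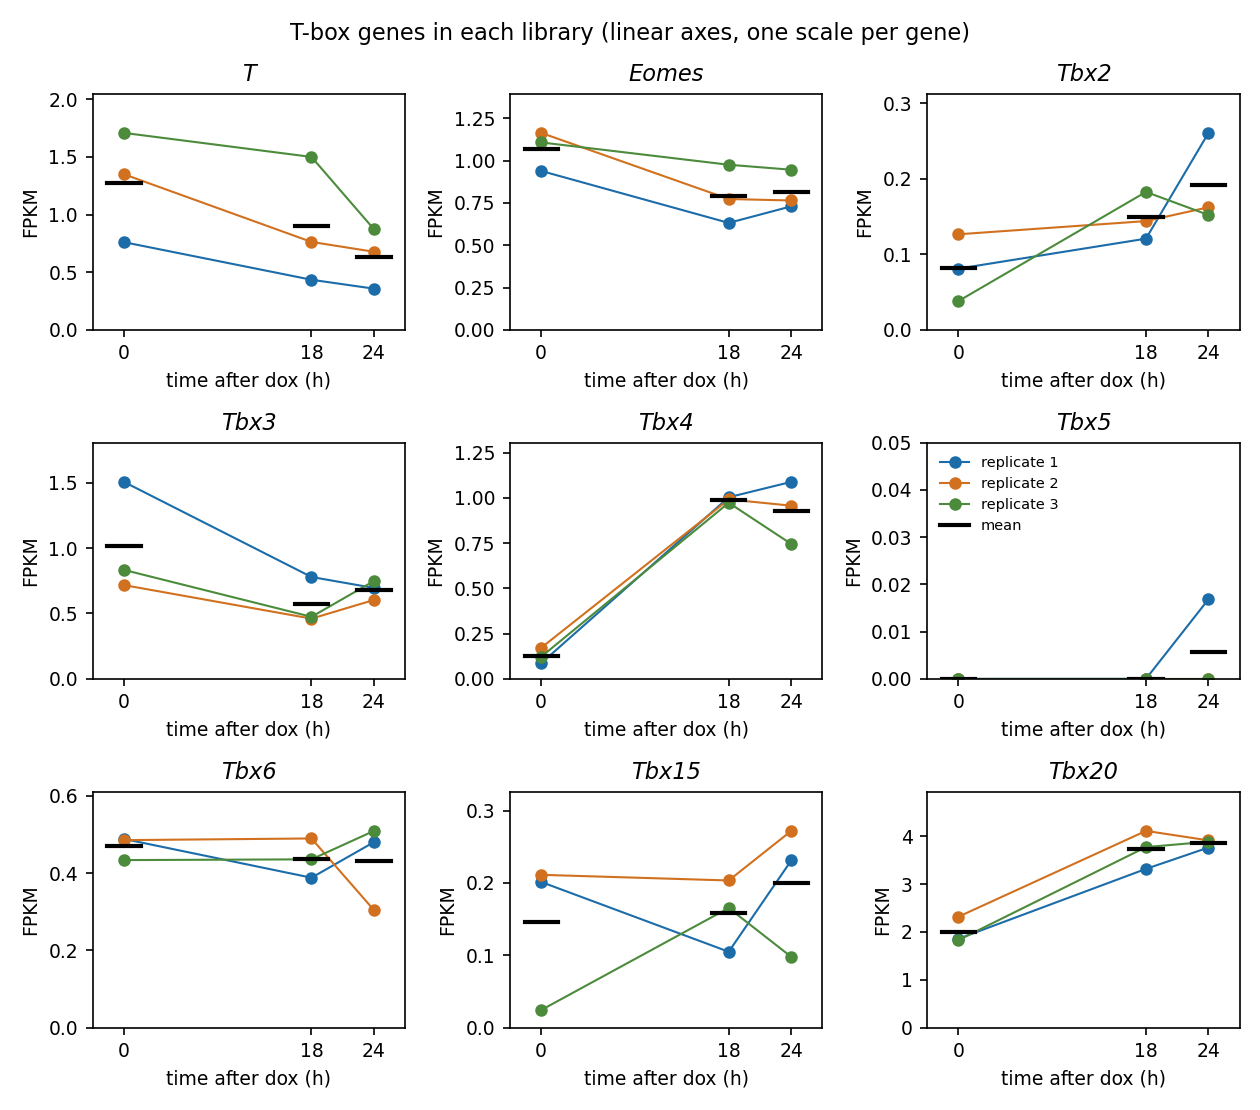
FPKM of each of the 9 T-box genes (y axis, linear, scaled per gene) against time after dox in hours (x axis). Points are single libraries joined by replicate number and black bars are means of 3 libraries: Tbx4 and Tbx20 were higher in every library after dox, and T was lower after dox within each replicate.

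Promoter sequences are shown for Tbx4 and Tbx20, the genes with an adjusted p of no more than 0.05, and for T, which holds E-boxes, since E2A recognises the E-box. They come from RefSeq (GRCm38.p6) and run 5′ to 3′ from 250 bases before to 50 bases after the annotated start, on the strand of the gene. The set of RefSeq windows used here held 5 of the 9 genes, and not Tbx2, Tbx3, Tbx5 and Tbx15. Capitals mark each E-box, searched as CANNTG, which reads the same on both strands. The Tbx4 window (chr11:85896515-85896814, plus strand) starts inside the gene as annotated above, at the 5′ end of a shorter transcript. The Tbx20 window is chr9:24774254-24774553 (minus strand) and the T window is chr17:8434173-8434472 (plus strand).
Tbx4: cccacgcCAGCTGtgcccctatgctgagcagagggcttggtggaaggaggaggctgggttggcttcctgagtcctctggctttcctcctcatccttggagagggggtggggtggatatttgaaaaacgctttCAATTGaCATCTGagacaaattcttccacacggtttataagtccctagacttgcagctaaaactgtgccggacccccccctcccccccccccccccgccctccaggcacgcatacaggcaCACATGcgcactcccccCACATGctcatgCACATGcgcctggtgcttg
Tbx20: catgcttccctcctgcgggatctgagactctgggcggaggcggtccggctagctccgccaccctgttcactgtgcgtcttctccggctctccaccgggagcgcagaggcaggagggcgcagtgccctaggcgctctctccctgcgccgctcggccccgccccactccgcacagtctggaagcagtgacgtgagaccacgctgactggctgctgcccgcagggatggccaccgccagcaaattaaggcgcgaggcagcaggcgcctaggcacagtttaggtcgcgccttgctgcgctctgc
T: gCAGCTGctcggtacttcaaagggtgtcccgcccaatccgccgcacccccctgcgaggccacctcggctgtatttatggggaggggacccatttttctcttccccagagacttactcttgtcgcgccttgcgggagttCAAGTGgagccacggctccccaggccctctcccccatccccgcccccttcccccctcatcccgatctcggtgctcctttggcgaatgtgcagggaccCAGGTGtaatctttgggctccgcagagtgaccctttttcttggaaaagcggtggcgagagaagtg

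The Tbx4 window held 6 E-boxes. Counted with the start as base 1, they began at -243 (CAGCTG), -118 (CAATTG), -111 (CATCTG), 3, 20 and 32 (each CACATG). Of 32851 mouse promoter windows of the same length, 72.3% held at least 1 CANNTG with a median of 1, and 0.67% held 6 or more. The T window held 3 E-boxes, at -249 (CAGCTG), -112 (CAAGTG) and -15 (CAGGTG). The forms CAGCTG and CAGGTG, the latter searched on both strands, are also CANNTG and were each found in 16.3% and 20.2% of all windows. The Tbx20, Eomes and Tbx6 windows held no CANNTG, so the letters were present in the window of 1 of the 2 genes with an adjusted p of no more than 0.05. The 8 letters AGGTGTGA, the core of the site that T-box proteins bind, were searched on both strands and were in none of the 5 windows and in 1.28% of all windows. Matches of this kind are a description of the sequence, and binding was not measured.

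Tbx20 (ENSMUSG00000031965, chr9:24718138-24774303, minus strand, 10 exons) had the highest level of the 9 genes at each time. At 0 h its level was 1.86, 2.32 and 1.83 FPKM in replicates 1, 2 and 3, from 305, 383 and 274 reads. At 18 h it was 3.32, 4.11 and 3.77 FPKM, and at 24 h it was 3.76, 3.91 and 3.88 FPKM. The lowest library after dox was above the highest library before dox. The mean was 1.86 times the 0 h mean at 18 h and 1.92 times at 24 h. The change on the log2 scale was 0.87 at 18 h (95% interval 0.60 to 1.14; limma adjusted p = 0.00436) and 0.92 at 24 h (95% interval 0.65 to 1.19; limma adjusted p = 0.00245). These pass the adjusted p but stay below the minimum change of 1 on the log2 scale, so Tbx20 was not called. Regardless of the size of the change, 7.98% of all tested genes passed the adjusted p at 18 h and 11.6% at 24 h. Without replicate 2 at 0 h, the highest of the 0 h libraries, the change at 24 h was 1.02 and was called. The exon length in the annotation used here was 1.74 times the length that the FPKM of Tbx20 imply, whereas it matched for the other 7 tested genes. With the longer length, the level of Tbx20 would be 1.15 FPKM at 0 h, 2.14 FPKM at 18 h and 2.21 FPKM at 24 h. This leaves the ratios of the means as they are. The log2 changes carry the added 0.1 FPKM and would be slightly smaller at that length. The call without replicate 2 at 0 h, close to the minimum of 1, may therefore not hold there.

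T (ENSMUSG00000062327, chr17:8434423-8442496, plus strand, 8 exons), the marker of the primitive streak and early mesoderm, was low throughout. At 0 h its level was 0.761, 1.35 and 1.71 FPKM in replicates 1, 2 and 3, from 42, 75 and 86 reads. At 18 h it was 0.434, 0.763 and 1.50 FPKM, from 23, 44 and 84 reads. At 24 h it was 0.357, 0.677 and 0.872 FPKM, from 21, 40 and 55 reads. The time points overlapped, and replicate 1 had the lowest and replicate 3 the highest value at each of the 3 times. Compared within replicates on the log2 scale, the 24 h library was below its 0 h library by similar amounts, -0.91, -0.90 and -0.90. The 18 h libraries differed from their 0 h libraries by -0.69, -0.75 and -0.18. Its log2 change was -0.54 at 18 h (95% interval -1.54 to 0.46; limma adjusted p = 0.491) and -0.90 at 24 h (95% interval -1.90 to 0.095; limma adjusted p = 0.217). With the replicate number as a block, the limma adjusted p was 0.0496 at 18 h and 0.00713 at 24 h, with the change still under 1. Over all tested genes, 21.6% and 26.1% passed an adjusted p of 0.05 with the block. With the block in edgeR, the change at 24 h was -1.02 (adjusted p = 0.00071) and T was called as lower, as 1 of 3 T-box genes called in that fit beside 5.3% of all genes. Among the fits that were run, a decrease of T was thus called only by edgeR with the block.

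Eomes (ENSMUSG00000032446, chr9:118478212-118486132, plus strand, 6 exons), the other streak factor among the 9, was at similar levels to T. Its level was 0.938, 1.16 and 1.11 FPKM at 0 h, 0.632, 0.773 and 0.975 FPKM at 18 h and 0.729, 0.764 and 0.946 FPKM at 24 h. Each library after dox was below the 0 h library of its replicate, but the time points overlapped. The mean was 1.07±0.117 FPKM at 0 h, 0.793±0.173 FPKM at 18 h and 0.813±0.116 FPKM at 24 h (each ±s.d. over 3 libraries). Its change of -0.40 on the log2 scale at 18 h (limma adjusted p = 0.214) and of -0.36 at 24 h (limma adjusted p = 0.240) did not pass the test. With the replicate block the limma adjusted p was 0.0702 and 0.0860, and in edgeR with the block it was 0.0372 and 0.0448, with changes under 1. The annotation places an antisense gene, Gm33460, over the 3′ part of Eomes. It was not in the tables used here.

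Tbx6 (ENSMUSG00000030699, chr7:126781483-126785560, plus strand, 8 exons) had the smallest fold-change of the 8 tested genes at both times. It was at 0.488, 0.485 and 0.433 FPKM at 0 h, 0.388, 0.489 and 0.435 FPKM at 18 h and 0.480, 0.304 and 0.509 FPKM at 24 h. The groups overlapped at every time. On the log2 scale it differed by -0.08 at 18 h (95% interval -0.56 to 0.39; limma adjusted p = 0.837) and -0.12 at 24 h (95% interval -0.60 to 0.36; limma adjusted p = 0.752). These values rest on 59, 57 and 61 reads over the 3 libraries of each time.

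Tbx3 (ENSMUSG00000018604, chr5:119670669-119684724, plus strand, 9 exons), the member that belongs to the network of naive pluripotency, was at 1.51, 0.717 and 0.833 FPKM at 0 h, from 238, 114 and 120 reads. It was at 0.779, 0.460 and 0.474 FPKM at 18 h, and at 0.695, 0.603 and 0.748 FPKM at 24 h. Replicate 1 at 0 h stood above all other libraries, and the time points overlapped. Within replicates, Tbx3 was lower after dox in 3 of 3 replicates at both times. The fitted log2 change was -0.70 at 18 h (95% interval -1.34 to -0.072; limma adjusted p = 0.156, 0.0438 with the replicate block). It was -0.46 at 24 h (95% interval -1.09 to 0.18; limma adjusted p = 0.322, 0.132 with the block). On the recovered reads, edgeR with the block gave an adjusted p of 0.00113 at 18 h and 0.0162 at 24 h, and DESeq2 gave 0.0268 and 0.132, with changes under 1 in each case. Without replicate 1 at 0 h the changes were -0.41 and -0.16. The antisense gene Tbx3os1 overlaps the start of Tbx3 and was at 0.0371 FPKM or less in each library.

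Tbx2 (ENSMUSG00000000093, chr11:85832551-85841948, plus strand, 7 exons), a repressor closely related to Tbx3, was near the limit of detection. It had 7, 11 and 3 reads at 0 h, 10, 13 and 16 reads at 18 h and 24, 15 and 15 reads at 24 h. Its level was 0.0818±0.0442 FPKM at 0 h, 0.149±0.0312 FPKM at 18 h and 0.192±0.0600 FPKM at 24 h (each ±s.d. over 3 libraries). Its 0 h mean was under the minimum of 0.1 FPKM, so it was among the 8 tested genes only through its higher levels at 18 h and 24 h. The 24 h libraries were all above the 0 h libraries, whereas those of 18 h overlapped with them. The change on the log2 scale was 0.48 at 18 h (limma adjusted p = 0.352) and 0.69 at 24 h (95% interval 0.026 to 1.36; limma adjusted p = 0.163). With the block in edgeR, the change at 24 h was 1.19 (adjusted p = 0.0445) and Tbx2 was called as higher. With the block in limma, the 95% interval at 24 h was -0.036 to 1.42 (adjusted p = 0.143), and without the block edgeR and DESeq2 gave adjusted p of 0.0886 and 0.135.

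Tbx2 and Tbx4 lie next to each other on chromosome 11, with the predicted gene Gm11444, at 0 FPKM in all 9 libraries, between them. The genes on either side of the pair, chosen after their values were seen, were at higher levels. Bcas3 was at 6.97 FPKM at 0 h and 6.71 FPKM at 24 h, a log2 fold-change of -0.05 (limma adjusted p = 0.762). Brip1, which encodes a DNA helicase, was at 2.98 FPKM at 0 h and 3.89 FPKM at 24 h, a log2 fold-change of 0.37 (limma adjusted p = 0.0688, 0.0102 with the block). Neither neighbour was called. Tbx3 and Tbx5 form the matching pair on chromosome 5, 147.9 kb apart.

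Tbx5 (ENSMUSG00000018263, chr5:119832668-119885219, plus strand, 11 exons) was at 0 in 8 libraries and at 0.0168 FPKM in replicate 1 at 24 h, about 2 reads. This is under the floor of 3 reads per library used here, so no change can be given. Tbx15 (ENSMUSG00000027868, chr3:99240381-99354259, plus strand, 10 exons) had 18, 19 and 2 reads at 0 h, 9, 19 and 15 reads at 18 h and 22, 26 and 10 reads at 24 h. Its level was 0.146±0.105 FPKM at 0 h, 0.158±0.0496 FPKM at 18 h and 0.200±0.0909 FPKM at 24 h (each ±s.d. over 3 libraries), and the groups overlapped. Its log2 change was 0.17 at 18 h (limma adjusted p = 0.838) and 0.35 at 24 h (limma adjusted p = 0.621). Without replicate 3 at 0 h, the library with 2 reads, the changes were -0.27 and -0.079.

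**Figure D2:**
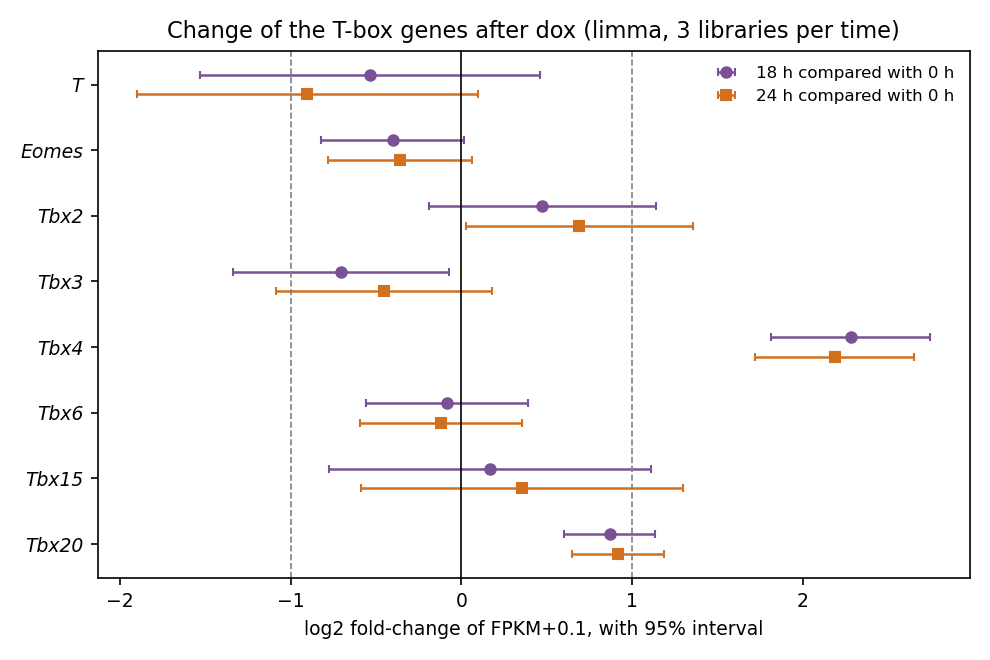
Log2 fold-change of FPKM+0.1 at 18 h and at 24 h compared with 0 h (x axis) for the 8 T-box genes tested (y axis), with 95% intervals from limma without the block and dashed lines at a change of 1 in either direction. Tbx4 lies beyond 1 at both times, the intervals of Tbx20 exclude 0 but include 1, and those of T, Eomes, Tbx6 and Tbx15 include 0. With the replicate block in limma, the intervals of T exclude 0 (-0.91 to -0.17 at 18 h, -1.27 to -0.53 at 24 h). Those of Eomes with the block exclude it too (-0.71 to -0.092 and -0.67 to -0.049), and those of Tbx6 and Tbx15 include it.

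Between 18 h and 24 h no T-box gene was called by limma, nor by edgeR or DESeq2 on the recovered reads, and none of the 8 had an unadjusted p under 0.05. Over all genes, 0.0223% were called by limma in this comparison and 5.59% had an unadjusted p under 0.05. Tbx4 differed by -0.09 on the log2 scale (95% interval -0.56 to 0.37; limma adjusted p = 0.994) and Tbx20 by 0.05 (95% interval -0.22 to 0.32; limma adjusted p = 0.995). T was lower at 24 h than at 18 h within 3 of 3 replicates, with a log2 fold-change of -0.36 (95% interval -1.36 to 0.63; limma adjusted p = 0.974). The higher levels of Tbx4 and Tbx20 were therefore already seen at 18 h, and a further change between the later times was within the spread of the libraries.

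Direction was also compared within replicates. At 24 h, 4 of the 8 tested genes were above 0 h in all 3 replicates (Tbx2, Tbx4, Tbx15 and Tbx20) and 3 were below in all 3 (T, Eomes and Tbx3), with Tbx6 mixed. Over all tested genes, 28.4% were above and 27.6% below in all 3 replicates at 24 h. At 18 h, 3 were above (Tbx2, Tbx4 and Tbx20) and the same 3 were below, with Tbx6 and Tbx15 mixed, beside 26.1% and 26.3% of all tested genes. In these counts, Tbx2 was tested only through its higher levels after dox, which favours its place among the genes above 0 h. The fitted change of Tbx15 at 24 h was -0.079 without replicate 3 at 0 h, which held 2 reads.

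The order of levels also differed between the time points. At 0 h, Tbx20 was above all others, with no overlap of its libraries with those of T. T, Eomes and Tbx3 followed at means of 1.27, 1.07 and 1.02 FPKM and overlapped one another. Tbx6 (0.469 FPKM) was below these 3, and Tbx15, Tbx4 and Tbx2 overlapped at the low end, between 0.0245 and 0.211 FPKM. At 18 h and 24 h Tbx4 ranked next after Tbx20, with libraries that overlapped those of T at 18 h and those of Eomes at 24 h, and Tbx15 and Tbx2 remained below Tbx6. The first place of Tbx20 at 0 h depends on its exon length, since at the longer length its 0 h libraries (1.05 to 1.33 FPKM) overlapped those of T, Eomes and Tbx3. At 18 h and 24 h its libraries at that length were above every library of the other 8 genes, the lowest at 24 h being at 2.16 FPKM.

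Summed over the 9 genes, 0 h libraries held 5.92 to 6.54 FPKM, 18 h libraries 6.78 to 8.48 FPKM and 24 h libraries 7.62 to 7.95 FPKM. Tbx20 made up 30.0% to 35.4% of this sum at 0 h, 44.5% to 51.8% at 18 h and 48.8% to 51.1% at 24 h. The share of Tbx4 was 1.46% to 2.62% at 0 h, 11.5% to 14.8% at 18 h and 9.37% to 14.3% at 24 h. T held 12.8% to 28.0% at 0 h, 6.41% to 17.7% at 18 h and 4.69% to 11.0% at 24 h. Its 18 h shares overlapped those of 0 h and its 24 h shares did not, while the FPKM of T overlapped between 0 h and 24 h and the sum was higher at 24 h. These shares depend on the exon length of Tbx20. At the longer length, an alternative added after the data were seen, Tbx20 would make up 19.8% to 23.9% of the sum at 0 h, 31.5% to 38.1% at 18 h and 35.4% to 37.5% at 24 h. Tbx4 would then make up 1.68% to 3.09% at 0 h and 11.8% to 18.1% at 24 h, and T 14.8% to 32.1% and 5.93% to 13.9%. At either length, the shares of Tbx20 and Tbx4 after dox were above those at 0 h.

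**Figure D3:**
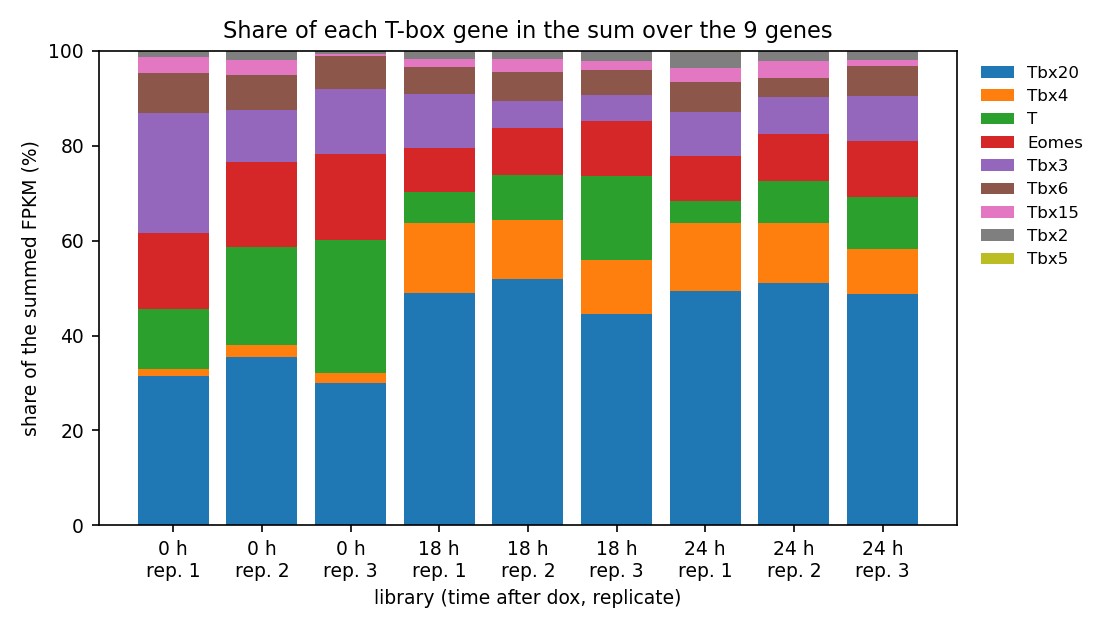
Share of each T-box gene in the summed FPKM of the 9 genes (y axis, %) in each of the 9 libraries (x axis, time after dox and replicate). Tbx20 takes at most 35.4% at 0 h and at least 44.5% after dox, and Tbx4 goes from at most 2.62% to at least 9.37%. With the longer exon length of Tbx20, its share would be at most 23.9% at 0 h and at least 31.5% after dox.

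The FPKM table also holds 8 other genes of the T-box family (Mga, Tbr1, Tbx1, Tbx10, Tbx18, Tbx19, Tbx21 and Tbx22). Of these, 2 passed the minimum FPKM, and neither was called by limma, edgeR or DESeq2, with 1 (Mga) at an unadjusted p under 0.05 by limma at 18 h and 0 at 24 h. Over all tested genes, 25.4% were under this p at 18 h and 28.2% at 24 h. Mga, a partner of Max that carries both a T-box and a bHLH domain, was the highest of all 17 at 17.6±2.03 FPKM at 0 h, 15.4±0.697 FPKM at 18 h and 16.2±0.347 FPKM at 24 h (each ±s.d. over 3 libraries). Tbx21, a regulator of T cells, was at 0.319, 0.196 and 0.249 FPKM. Tbx1 had 4 reads over the 0 h libraries, 2 at 18 h and 22 at 24 h, and Tbr1 had 5, 12 and 22, which were too few for the limma test.

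To set the T-box genes beside the pathways they act in, 4 lists were examined, chosen with results of these data known. Of 19 partners and targets of T, Eomes and Tbx6 in the primitive streak and mesoderm, 16 were tested, of which 5 rose and 1 fell at both times, beside 1.33% higher and 0.724% lower of all tested genes at 18 h and 2.07% and 0.836% at 24 h. The genes that rose at both times were Cdx2, Dll3, Dll1, Lhx1 and Snai1. Lhx1 was at 0.0175 FPKM at 0 h and 0.249 FPKM at 24 h, so it passed the minimum FPKM only through the libraries taken after dox, as did Gsc and Foxa2, which were not called. At 24 h, 7 of the 16 were called as higher with the replicate block in limma (2.34% of all tested genes) and 8 of 17 by edgeR on the recovered reads (2.81%), with a median log2 fold-change of 1.11 in edgeR. Cdx2 increased from 0.476±0.218 FPKM at 0 h to 3.44±0.684 FPKM at 24 h (mean±s.d., n=3; limma log2 fold-change of 2.68, adjusted p = 0.00117). The Notch ligands Dll1 and Dll3, which act with Tbx6 in the somite precursors, had log2 fold-changes of 1.73 and 1.96 at 24 h. The study reports both as upregulated Notch components, and Snai1 among genes related to the epithelial-mesenchymal transition. Cdx4, a caudal-type homeobox gene, fell by 1.71 on the log2 scale, from 2.32±0.606 FPKM to 0.630±0.131 FPKM. By limma, the median log2 fold-change of the list at 24 h was 0.75, beside 0.0040 for all tested genes. This median includes Lhx1, Gsc and Foxa2, whose entry through the libraries taken after dox favours a rise, so it is no measure of a shift of the list. Mixl1 (0.477 FPKM at 0 h and 0.641 FPKM at 24 h) and Nodal (22.6 and 20.5 FPKM) were not called. Nor was Mesp2 (0.547 and 0.447 FPKM), while Mesp1, Msgn1 and Evx1 were below the minimum FPKM and were not tested. Among those not called, Wnt3 was at 3.92±1.87 FPKM at 24 h (log2 fold-change of 1.64 compared with 0 h, limma adjusted p = 0.0761), and Gsc was at 0.203±0.127 FPKM (1.38, limma adjusted p = 0.0508).

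Of 18 heart and limb partners and targets of Tbx2, Tbx3, Tbx4, Tbx5 and Tbx20, 10 were tested, and 1 rose and 1 fell at 18 h and 2 rose and 1 fell at 24 h. Of all tested genes, 1.33% were called as higher and 0.724% as lower at 18 h, and 2.07% and 0.836% at 24 h. Hand1, a bHLH factor of the heart and trophoblast, increased from 1.22±0.385 FPKM to 11.6±0.764 FPKM (log2 fold-change of 3.19). Isl1 increased to 0.303±0.135 FPKM from 0.0433±0.0275 FPKM, and it too passed the minimum FPKM only through the libraries taken after dox. Myl7, which encodes an atrial myosin light chain, decreased to 1.07±0.347 FPKM (log2 fold-change of -1.42). The median of the list was 0.02. Nkx2-5, a cofactor of Tbx5 and Tbx20, was at 0.112 FPKM at 0 h and 0.119 FPKM at 24 h, and Gata4 was at 0.175 and 0.152 FPKM.

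BMP signalling acts upstream of Tbx2, Tbx3 and Tbx20 in the embryo. Of 13 BMP ligands and response genes, 12 were tested, of which 4 rose at 18 h and 5 at 24 h and none fell, beside 1.33% and 2.07% of all tested genes called as higher and 0.724% and 0.836% as lower. At 24 h, Id3 had a log2 fold-change of 4.21, Bmp7 of 3.49, Id1 of 2.62, Id2 of 1.95 and Msx2 of 1.23. Id genes encode inhibitors of E proteins such as E2A. Bmp7 was at 1.16±0.225 FPKM at 0 h and 14.1±3.28 FPKM at 24 h, whereas Bmp4 was at 2.95±0.0473 and 2.37±0.846 FPKM and was not called. Msx1 was not called either, with a change of 1.07 on the log2 scale at 24 h (limma adjusted p = 0.0794). The response genes Smad6 (0.69), Bambi (0.19) and Smad7 (-0.27) were also not called at 24 h. Neither were Bmp2 (0.39) and Nog (0.24). The median of the list at 24 h was 0.88, with Id1, Id2 and Id3 included. The study reports that overexpressed E2A upregulated Id1, in what appeared to be a feedback response. What part BMP signalling has in these changes was not tested. Of 11 genes of naive pluripotency other than Tbx3, all were tested, and 0 were called at either time by limma, edgeR or DESeq2. By limma, 5 of them had an unadjusted p under 0.05 at 18 h and 3 at 24 h, beside the 25.4% and 28.2% of all tested genes. With the replicate block it was 8 of the 11 at each time, beside 36.3% and 39.5% of all tested genes. At 24 h, Nanog (limma adjusted p = 0.00735), Klf5 (0.0164) and Dppa3 (0.0420) passed the adjusted p with changes under 1 of 0.86, -0.81 and 0.98. The median of the list at 24 h was -0.08.

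**Figure D4:**
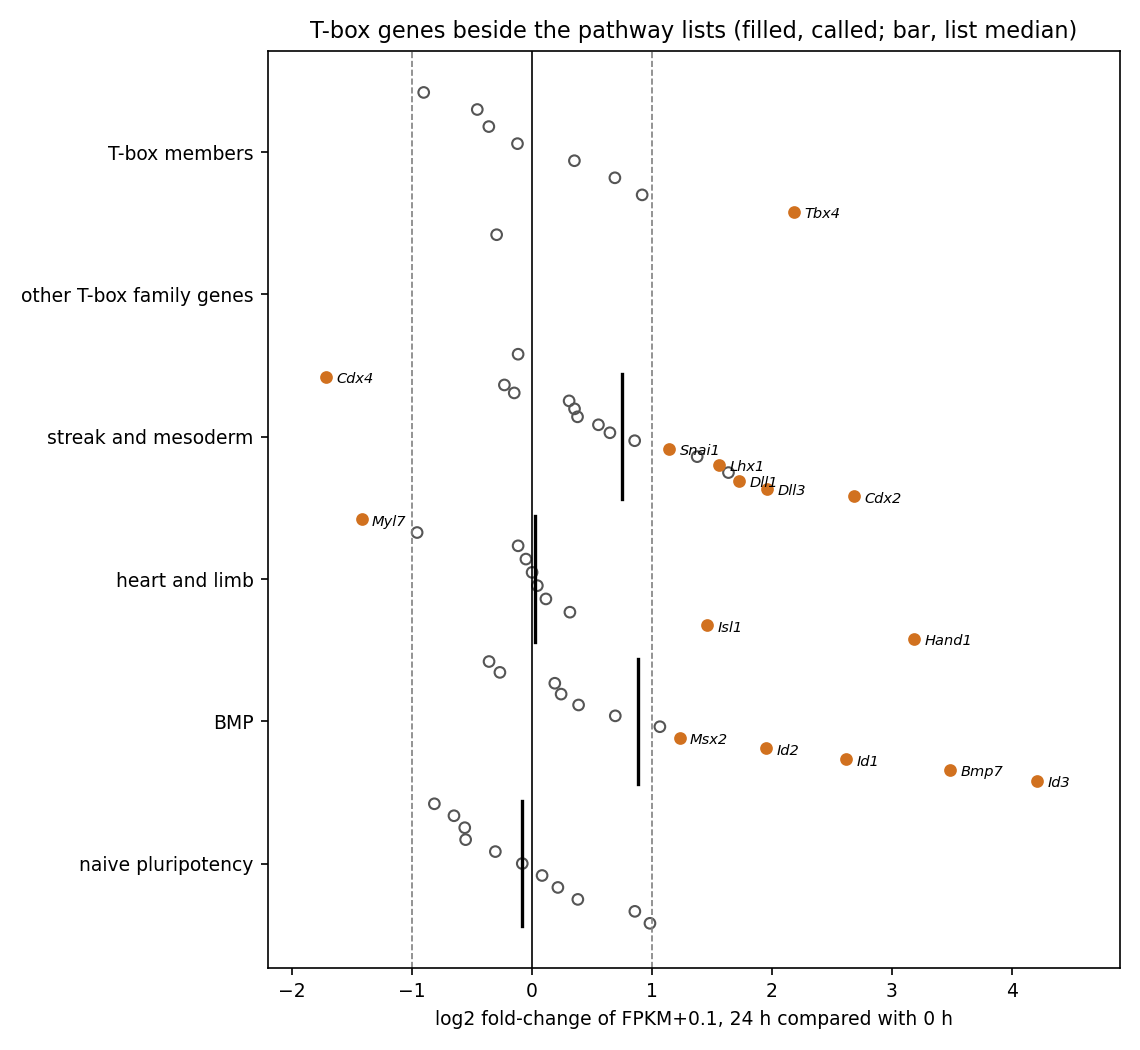
Log2 fold-change of FPKM+0.1 at 24 h compared with 0 h (x axis) of the T-box genes, the other genes of the family and the 4 lists (y axis), each point being a gene tested. Filled points were called, black bars are medians of the lists and dashed lines mark a change of 1 in either direction: Tbx4 is the filled point among the T-box genes, and none is filled in naive pluripotency.

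By the root mean square difference of centred log2 values over the 9 libraries, the genes most like Tbx4 among 11892 genes with a mean of at least 1 FPKM were Lbh (0.21), Ldhb (0.27) and Trp53i11 (0.28). Lbh, a transcriptional cofactor named for its expression in limb bud and heart, was at 1.36 FPKM at 0 h, 5.63 FPKM at 18 h and 5.94 FPKM at 24 h. Because Lbh was picked for its likeness to Tbx4 in these libraries, the shared pattern of low 0 h and similar 18 h and 24 h libraries follows from that choice. A link between Lbh and Tbx4 was not tested.

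Markers of other cells that can express T-box genes were summed for each library, and their part in the results was not tested. Fibroblasts can express Tbx2, Tbx3, Tbx4, Tbx5 and Tbx15. The study kept its ESCs on gelatinised flasks and names no feeder layer. All 10 fibroblast markers were detected in each 24 h library, and at most 1 of the 10 was at 0 in any other library. They summed to 7.80 to 15.9 FPKM at 0 h, 7.78 to 12.4 FPKM at 18 h and 8.13 to 13.2 FPKM at 24 h. Among them, Dcn reached 4.79 FPKM and Col1a2 4.97 FPKM, both in replicate 3 at 0 h, and Prrx1 was at no more than 0.0249 FPKM in each library. The markers differed in direction between 0 h and 24 h. Pdgfrb was at 0.60 to 1.23 FPKM at 0 h and 1.87 to 2.28 FPKM at 24 h, whereas Thy1 was at 1.75 to 2.39 FPKM and 0.99 to 1.33 FPKM, and neither overlapped. Dcn was lower at 24 h within each replicate, at 1.87, 2.78 and 2.26 FPKM compared with 2.09, 3.96 and 4.79 FPKM.

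Trophoblast cells can express Eomes. The 10 trophoblast markers summed to 326 to 379 FPKM at 0 h, 689 to 824 FPKM at 18 h and 626 to 826 FPKM at 24 h, mainly from Krt8 and Krt18. Between 0 h and 24 h, Cdx2 went from 0.24 to 0.67 FPKM to 2.82 to 4.17 FPKM, Hand1 from 0.81 to 1.56 FPKM to 11.1 to 12.5 FPKM and Tfap2c from 4.54 to 6.75 FPKM to 8.35 to 13.5 FPKM. In the same list, Tpbpa was at 0 in every library and Elf5 at 0.0357 FPKM or less. The 8 cardiomyocyte markers, of cells that express Tbx20, summed to 7.59 to 11.2 FPKM at 0 h, 5.35 to 6.06 FPKM at 18 h and 5.45 to 6.38 FPKM at 24 h. Myl7 was at 2.18 to 4.97 FPKM at 0 h and 0.86 to 1.47 FPKM at 24 h, and Myh7 was at 0.21 to 0.47 FPKM and 0.28 to 0.61 FPKM, higher at 24 h within each replicate. The 10 endoderm markers summed to 5.76 to 6.25 FPKM at 0 h, 4.83 to 5.24 FPKM at 18 h and 5.75 to 6.42 FPKM at 24 h, with Ttr at 0 throughout. Dab2 made up most of this sum and was higher at 24 h within each replicate (3.23 to 4.55 FPKM at 0 h, 3.99 to 5.11 FPKM at 24 h). Amn was lower without overlap (0.47 to 0.87 FPKM at 0 h, 0.31 to 0.37 FPKM at 24 h).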

How the data were processed

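The authors made stranded libraries of polyadenylated RNA, aligned the reads to GRCm38 and deposited 2 tables. One holds FPKM, which the authors computed from their aligned reads for 47729 genes. The other holds, for 19210 genes, a signal that the authors computed as CPM scaled to an effective library size, and the deposited log2 fold-changes, p-values and FDR of the authors' own edgeR comparisons in that table were not used. The submitters' processing notes name cutadapt 1.9 and edgeR 3.16.5. Whether strand was used in counting, and what was done with multiply aligned reads, is not given in the sources used here, so overlapping and closely related genes are uncertain.

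Reads were recovered by dividing the deposited signal by the value of 1 read in each library, and 100% of the values came out whole within 0.01 read. Reads of Tbx5 and of other genes outside the filtered table were estimated from FPKM and exon length. Groups followed the labels. The main test was limma 3.58.1 in R 4.3.3 (lmFit, and eBayes with a trend) on log2(FPKM+0.1) with all 9 libraries, for 17951 genes whose mean FPKM reached 0.1, with Benjamini-Hochberg adjustment over all of them. edgeR 4.0.16 (quasi-likelihood, TMM) and DESeq2 1.42.0 on the recovered reads, other pseudocounts and filters, other scalings, a replicate block and leaving out each library were alternatives. The scripts were tested on simulated data. Positions, exons and overlaps come from GENCODE M21 (GRCm38), and promoters from RefSeq. Python 3.11.15 handled the tables.

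The titles number the replicates 1 to 3 at each time and the study speaks of 3 biological experiments. Deviations from the group means correlated in each of 9 pairs of libraries with the same number (r of 0.211 to 0.548, 11893 genes). The numbers were therefore taken to pair the libraries. For different numbers r averaged -0.161, which largely follows from centring each gene on its group means and adds no evidence of pairing. Replicates differed by more than sampling noise (chi-square over its degrees of freedom of 5.39 to 16.3). Intervals and floors cover counting error only where they are given for reads. The 9 genes and the lists were chosen with earlier results of these data known. The genes named are these 9, the called members of each list in order of their change at 24 h, overlapping genes, and the 3 genes most like each called T-box gene. Flanking genes and further list members, such as Mixl1, Nodal, Nkx2-5, Gata4, Bmp4, Nanog, Klf5 and Dppa3, were added after their values were seen.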

Additional observations from a re-analysis of the deposited data

How the results depend on the processing

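Tbx4 was called at 18 h and at 24 h compared with 0 h in every alternative apart from 2. With a pseudocount of 1, 0 T-box genes were called at either time (Tbx4 at 0.82 and 0.77). With a mean FPKM of at least 1, Tbx20 alone was tested and 0 were called. With no minimum fold-change, 2 passed at each time (Tbx4 and Tbx20). In edgeR with the replicate block, 3 were called at 24 h (T at -1.02, Tbx2 at 1.19 and Tbx4). Without 1 library, 1 to 2 were called at 24 h, with Tbx20 added at 1.02 without 0 h replicate 2, and 1 in each case at 18 h. With the replicate block in limma, 1 was called at 18 h, 1 at 24 h and 0 between 18 h and 24 h, and the block changed no other call of a T-box gene. Between 18 h and 24 h, 0 were called in any alternative. Of 435 log2 fold-changes under alternatives, 419 kept their direction and their side of the call, and 11 changed sign, none of them of a called gene in a comparison with 0 h. These were Eomes between 18 h and 24 h with quantile normalization (-0.0081) and, with 1 library left out, T (-0.74 to 0.047), Eomes (-0.093 to 0.19), Tbx4 (-0.20 to 0.041), Tbx6 (-0.15 to 0.15) and Tbx20 (-0.031 to 0.12) between 18 h and 24 h, Tbx6 at 24 h compared with 0 h (-0.23 to 0.065), and Tbx15 at 18 h (-0.27 to 0.39) and 24 h (-0.079 to 0.63). The cause of these differences was not tested. Depth limits Tbx2, Tbx5, Tbx6 and Tbx15, at 26 reads or fewer in each library, and the 0 h level of Tbx4, at 7 to 14 reads.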
